A study of Mus musculus with 22 samples.

Results

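Adult hepatocytes of Ezh1/2 mutant mice were compared with wild-type hepatocytes at 2 months of age (M2). The comparison uses 10 of the 22 libraries of the series. They are the 6 M2 columns of the raw count table that are named for the mutant (3 males and 3 females) and the 4 that are named for the wild type (2 males and 2 females). Mutants carried the genotype Alb-Cre;Ezh1-/-;Ezh2f/f: Ezh1 was deleted in all cells, and Ezh2 was floxed and open to recombination by Cre from the albumin promoter, which is active in hepatocytes. Wild-type mice are labelled Wt with no further allele, so a control with Cre alone, or with 1 of the 2 genes lost, was not analysed here. The other 12 libraries, from postnatal day 14, entered the filter on low counts, the scaling and the estimate of the spread between replicates, and no contrast.

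EZH1 and EZH2 are the alternative catalytic subunits of Polycomb repressive complex 2 (PRC2), which also needs EED and SUZ12 and which methylates lysine 27 of histone H3 on genes that are kept silent. The adult hepatocyte makes most plasma proteins, disposes of ammonia as urea, stores and releases glucose, burns and makes fat, forms bile acids and clears foreign compounds. These tasks are divided along the lobule between the portal vein and the central vein, and many of them differ between male and female mice under the pattern of growth hormone release.

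Levels are CPM (counts scaled to library size) over library totals adjusted by TMM, a scaling that assumes most genes do not change. They are given for wild-type male 1, male 2, female 1 and female 2 in that order, and for the mutants as the lowest, median and highest of the 6 libraries. Fold changes are log2 values that weight the sexes equally, each with its standard error (SE). Adjusted p values are Benjamini-Hochberg values of the quasi-likelihood test of edgeR, run over 13493 genes. "Rose" and "fell" stand for an adjusted p under 0.05. Total counts per library ran from 6946003 (mutant male 3) to 27505582 (mutant female 1). The first principal component of the 10 libraries, with 57.7% of the variance, had all mutants on one side and all wild types on the other, and replicates correlated across genes at r = 0.929 to 0.989. Mutant male 1 lay farthest out on that component, and it had the highest summed markers of several other cell types, given with those results. The mutant M2 libraries carry another label format than the rest, so a batch and the mutant group cannot be told apart.

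Ezh1 was low in every mutant. It stood at 8.0, 7.63, 10.6 and 7.96 CPM in the wild types and at 1.04, 1.18 and 2.13 CPM in the mutants, and the groups did not overlap (log2 fold change -2.70 ± 0.21 SE, adjusted p = 1.84e-08). Ezh2 was scarce in both, at 2.98, 5.2, 5.62 and 5.07 and 3.08, 4.76 and 5.3 CPM (log2 fold change -0.03 ± 0.20 SE, adjusted p = 0.93). The sources used here do not give the deleted exons, and the counts are per gene, so the Ezh2 value does not check the deletion. Among the other PRC2 genes, Eed fell (-0.62 ± 0.14, adjusted p = 0.0019) and Suz12 did not pass the test (-0.22 ± 0.15, adjusted p = 0.24). The log2 change of Suz12 was -0.66 in males and 0.23 in females (adjusted p = 0.018 and 0.51), and the difference between the sexes did not pass (adjusted p = 0.18). Without mutant male 3 its fall over both sexes passed (-0.32, adjusted p = 0.044). Ezh1 is in the list of PRC2 genes although it was deleted by design, and 20.4% of all genes tested were lower. In all, 4 of 11 PRC2 genes, Ezh1 included, were lower and 0 higher. That count was 2 with wild-type male 1 or wild-type female 1 left out, and 1 with plain totals, where the call for Eed was lost (adjusted p = 0.089).

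The mutant state was broad. Of all genes tested, 45% changed by the test. In all, 3320 were higher in the mutant (24.6%) and 2749 were lower (20.4%). Every mutant library was above every wild-type library in 1931 genes (14.3%) and below every one in 1609 (11.9%). Direction went with level. Among the 1157 genes of at least 100 CPM in the wild type, 51.3% were lower, and among the 2600 genes under 1 CPM there, 63.2% were higher. Counts for hepatocyte functions are best read against both the 51.3% and the 20.4%, as their lists were not limited to genes of at least 100 CPM. Counts for genes that are nearly silent in the wild type are best read against the 63.2%. The reason is that a scarce gene enters the test mostly through the group where it is high. With plain library totals in place of TMM, 4532 genes were higher and 805 lower, so the higher share of calls went from 54.7% to 84.9%, and the median over all genes moved from 0.03 to 0.30. Under those totals 25.2% of the genes of at least 100 CPM were lower. The number of lower genes was 1714 and 1691 with wild-type male 1 or 2 left out, and 1829 and 1659 with wild-type female 1 or 2 left out.

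**Figure D1:**
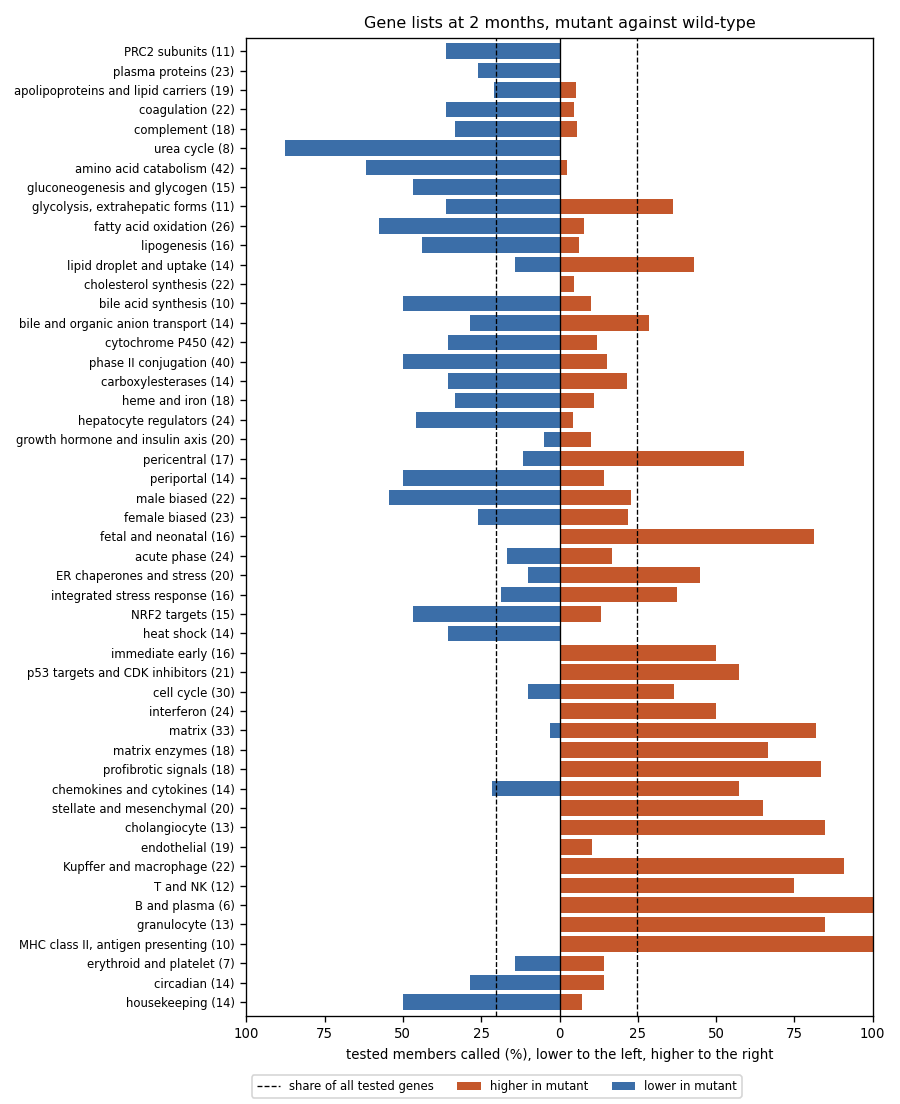
Share of the tested members of each of 50 gene lists that were higher (right) or lower (left) in the mutant at 2 months, with the number of tested members in brackets. Dashed lines mark the shares over all genes, 24.6% higher and 20.4% lower. Lists of amino acid and urea metabolism extend left, and lists of fetal genes, matrix and other cell types extend right.

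Where the genotypes did not overlap and the average level reached a log2 CPM of 2, the largest rises included fetal liver genes, growth factor receptors and lipid genes. Gpc3, a cell surface proteoglycan of fetal liver, stood at 0.425, 0.26, 0.0662 and 0.193 CPM in the wild types and 16.4, 27.6 and 31 CPM in the mutants (log2 fold change 6.85 ± 0.32 SE, adjusted p = 2e-11). Igf1r, the receptor for insulin-like growth factor 1, which adult hepatocytes barely express, rose from 0.936, 1.56, 0.662 and 1.35 to 20.7, 29.8 and 52.1 CPM (log2 fold change 4.75 ± 0.44 SE, adjusted p = 1.08e-07). Ntrk2, a neurotrophin receptor, was at 0.255, 0.347, 7.74 and 13.4 CPM against 87.6, 115 and 146 CPM, and its wild-type males and females differed more than its mutants did. That the genotypes of these 3 genes do not overlap was a condition of the ranking. Also among the 15 largest rises were the protease inhibitor Slpi (6.5 ± 0.81), the protease Corin (6.26 ± 0.56), the secreted glutathione peroxidase Gpx3 (5.85 ± 0.47), Calml4 (5.51 ± 0.36), the prostaglandin D synthase Ptgds (4.63 ± 0.50), the tetraspanin Cd63 (4.60 ± 0.25), the organic cation transporter Slc22a3 (4.44 ± 0.35), the calsyntenin Clstn1 (4.43 ± 0.22) and the oxysterol binding protein Osbpl3 (4.37 ± 0.29).

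Under those limits the largest falls included genes of metabolism and scarcer genes of other roles. Mup3, a major urinary protein, stood at 14909.8, 14737, 3905 and 2782 CPM in the wild types and 129, 251 and 2024 CPM in the mutants (log2 fold change -4.0 ± 0.57 SE, adjusted p = 1.99e-05). Mup genes are near-identical copies, so reads of this gene may be shared with others of the cluster. Thrsp, a regulator of fat synthesis, went from 474, 421, 542 and 637 to 38.7, 55.7 and 169.7 CPM (log2 fold change -2.75 ± 0.57 SE, adjusted p = 0.000834). Inmt, an indolethylamine methyltransferase, went from 760.3, 1257, 647 and 629.5 to 66.2, 121 and 182 CPM (log2 fold change -2.73 ± 0.25 SE, adjusted p = 1.22e-07). The groups of all 3 were apart by the condition of the ranking, and the mutant range of Mup3 was wide, with the males above the females. Other falls of this size were those of the vesicular glutamate transporter Slc17a8 (-2.87 ± 0.35), Lrit1 (-2.74 ± 0.40), the phosphatase Acp1 (-2.68 ± 0.19), Nlrp12 (-2.68 ± 0.22), Wfdc21 (-2.5 ± 0.37), the sulfotransferase Sult2a8 (-2.42 ± 0.37) and Zfand4 (-2.34 ± 0.18).

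The sequence before the start site was rich in CG in Gpc3 and poor in CG in Slpi, Mup3 and Thrsp. PRC2 is known for its preference for promoters rich in CG dinucleotides, so the 250 bases before the start are shown for the genes highest in each ranking that have 1 start in the table, from RefSeq on GRCm38.p6 and all read 5′ to 3′ on the minus strand, with each CG in capitals. The counts themselves were made on mm9.
Gpc3, chrX:52613975-52614224: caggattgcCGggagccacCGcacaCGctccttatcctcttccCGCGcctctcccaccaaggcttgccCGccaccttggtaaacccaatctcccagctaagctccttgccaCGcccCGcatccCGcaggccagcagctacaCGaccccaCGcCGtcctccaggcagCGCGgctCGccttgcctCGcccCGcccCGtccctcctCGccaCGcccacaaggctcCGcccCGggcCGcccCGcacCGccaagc
Slpi, chr2:164356508-164356757: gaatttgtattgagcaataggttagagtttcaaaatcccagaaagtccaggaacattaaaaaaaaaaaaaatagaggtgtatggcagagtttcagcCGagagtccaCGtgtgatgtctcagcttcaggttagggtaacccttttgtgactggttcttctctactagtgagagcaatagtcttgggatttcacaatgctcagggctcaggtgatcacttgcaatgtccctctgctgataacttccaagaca
Mup3, chr4:62087318-62087567: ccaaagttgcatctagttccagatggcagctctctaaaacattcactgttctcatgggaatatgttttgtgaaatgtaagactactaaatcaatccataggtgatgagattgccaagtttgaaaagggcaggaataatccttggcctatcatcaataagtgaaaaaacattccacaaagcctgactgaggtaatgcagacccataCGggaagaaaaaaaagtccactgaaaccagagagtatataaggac
Thrsp, chr7:97417551-97417800: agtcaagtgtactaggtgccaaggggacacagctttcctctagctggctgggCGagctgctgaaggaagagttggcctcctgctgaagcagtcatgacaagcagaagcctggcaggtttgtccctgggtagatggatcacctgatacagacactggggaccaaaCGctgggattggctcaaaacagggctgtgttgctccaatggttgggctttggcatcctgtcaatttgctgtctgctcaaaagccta
The window held 25 CG in Gpc3, 2 in Slpi, 1 in Mup3 and 2 in Thrsp. CG is its own complement, so 1 strand counts both. Windows were matched for 10752 of 13493 tested symbols (79.7%), under the 80% set as the minimum, so no share over all genes is given. Among genes of at least 20 CPM in the wild type, where the match was higher, windows with at most 4 CG made up 10.8% of all 3826 matched genes (of 4709), 11.2% of the 1618 that were lower (of 1997) and 75.9% of the 29 that were lower by at least 2 log2 units (of 36). The median window of those 3 sets held 17 CG, 16 CG and 2 CG. The strongest falls of expressed genes lay among genes with few CG before the start, and falls in general were like all expressed genes. Of the 256 higher genes of that level 204 were matched (79.7%), under the minimum, so no share is given for rises.

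Few genes of plasma proteins, the hallmark output of the hepatocyte, passed the test. Alb, the defining marker, stood at 126462, 123596, 143547 and 128210.0 CPM in the wild types and 80299, 121089 and 170724 CPM in the mutants, with overlap (log2 fold change -0.04 ± 0.19 SE, adjusted p = 0.87). Ttr, the thyroxine carrier, did not pass either (0.23 ± 0.20, adjusted p = 0.36), and with plain totals it was higher (adjusted p = 0.030). Of 23 plasma protein genes, 6 were lower, 0 higher and 17 not called (median -0.19, against 0.03 over all genes). The lower ones included the protease inhibitors Serpina1d (-1.61 ± 0.42) and Serpina1a (-0.79 ± 0.23), which have near-identical copies, and Azgp1 (-0.67 ± 0.16). With plain totals 5 were higher and 3 lower (median 0.07). The number lower was 3 with wild-type male 2 or wild-type female 1 left out, and the number higher was 1 with mutant male 1 left out, 2 with mutant male 3 left out and 3 with mutant female 1 left out.

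Some clotting and complement genes were lower. Of 22 coagulation genes 8 were lower and 1 higher, and of 18 complement genes 6 were lower and 1 higher. Both shares lower are under the 51.3% of genes of at least 100 CPM and above the 20.4% of all genes tested. F11, a factor of the contact pathway, stood at 107, 92.6, 89.3 and 67.2 CPM against 20.3, 29.8 and 52.8 CPM in the mutants (log2 fold change -1.40 ± 0.21 SE, adjusted p = 3.66e-05). Smaller falls were those of factor IX (F9, -0.56 ± 0.15), antithrombin (Serpinc1, -0.60 ± 0.16), complement component 5 (Hc, -0.67 ± 0.18), C8b (-1.03 ± 0.25) and the mannose-binding lectin Mbl1 (-0.78 ± 0.18). C6, a complement gene with higher levels in males, rose (1.91 ± 0.21). Coagulation genes lower numbered 5 with wild-type male 2 or wild-type female 2 left out, and those higher numbered 0 with wild-type female 2 left out. With plain totals the balance turned: 3 coagulation genes were higher and 2 lower, and 4 complement genes were higher and 3 lower. There the call for F9 was lost (adjusted p = 0.086).

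Few apolipoprotein genes passed the test, and Apoa4 rose several-fold. Of 19 genes of lipoproteins and their handling 4 were lower and 1 higher (median -0.16), but with plain totals 2 were lower and 4 higher (median 0.09). Apoa4, the apolipoprotein that rises in liver under fat load, stood at 109.7, 105, 87.9 and 107 CPM and at 559, 843 and 1699 CPM in the mutants (log2 fold change 3.17 ± 0.48 SE, adjusted p = 3.55e-05). Every mutant library was above every wild-type library. Apom, the carrier of sphingosine 1-phosphate, fell from 189 ± 24.2 to 80.7 ± 22.9 CPM (SD, n = 4 and 6; -1.24 ± 0.19), and Apoc4 fell by less (-0.66 ± 0.18).

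Genes that dispose of nitrogen were mostly lower. Of 8 urea cycle genes 7 were lower and none was higher (median -0.73), and of 42 genes of amino acid breakdown 26 were lower and 1 higher (median -0.57), against 51.3% lower among all genes of at least 100 CPM. Arg1, the arginase that releases urea, stood at 1273, 1354, 936 and 1069 CPM in the wild types and 179.7, 337 and 555 CPM in the mutants (log2 fold change -1.72 ± 0.17 SE, adjusted p = 1.76e-07). Asl, which makes arginine, stood at 618, 671, 508 and 549 and 113, 178 and 239.6 CPM (log2 fold change -1.73 ± 0.14 SE, adjusted p = 2.94e-08). For both, the 6 mutants lay below the 4 wild types, and the log2 change was -2.40 in males and -1.04 in females for Arg1 and -2.14 in males and -1.33 in females for Asl. Cps1, the entry enzyme of the cycle, fell less (-0.84 ± 0.17). In the methionine cycle, Ahcy, which clears S-adenosylhomocysteine, the product of every methyltransferase reaction, went from 532, 579.9, 394 and 437 to 62.7, 103 and 126 CPM (log2 fold change -2.29 ± 0.16 SE, adjusted p = 4.63e-09). Gnmt, which consumes surplus S-adenosylmethionine, went from 1547, 1787, 1120.3 and 1329 to 301, 442 and 542 CPM (log2 fold change -1.76 ± 0.18 SE, adjusted p = 3.45e-07). Haao, of tryptophan breakdown, fell by a like amount (-1.56 ± 0.14). With plain totals 4 urea cycle genes and 16 amino acid genes were lower, and 3 amino acid genes were higher. Under TMM the latter count was 0 with wild-type male 1 left out.

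**Figure D2:**
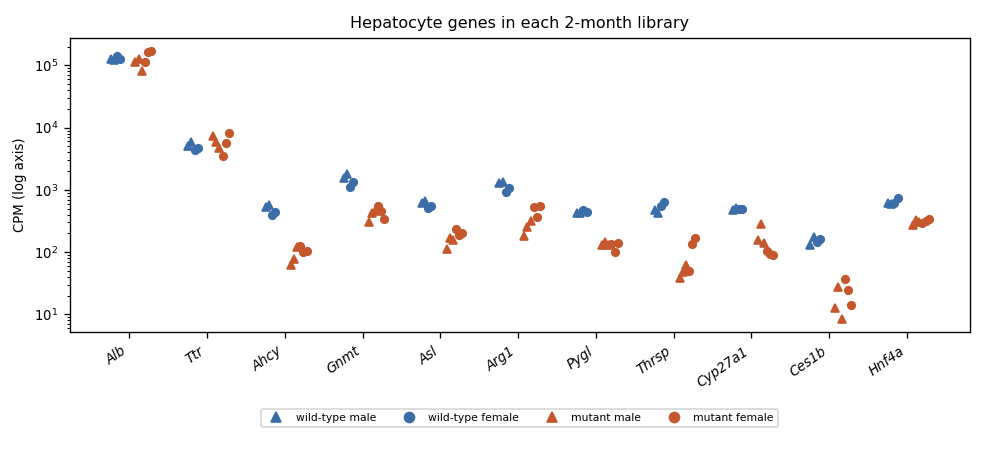
CPM (log axis) of 11 hepatocyte genes in each 2-month library, triangles for males and circles for females. Alb and Ttr overlap between the genotypes, while for the 9 others every mutant library lies below every wild-type library. The same holds for 11.9% of all genes tested.

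Glycogen and glucose genes fell in part. Of 15 genes 7 were lower and 0 higher (median -0.47), and among all genes of at least 100 CPM 51.3% were lower. Gbe1, the glycogen branching enzyme, went from 147, 173, 167 and 176 CPM in the wild types to 24.6, 45.2 and 48.8 CPM in the mutants (log2 fold change -2.04 ± 0.23 SE, adjusted p = 1.48e-06). Pygl, the liver glycogen phosphorylase, went from 419.9, 428, 469.9 and 442 to 99.6, 134 and 147 CPM (log2 fold change -1.75 ± 0.15 SE, adjusted p = 4.67e-08). Both the making and the release of glycogen were represented among the lower genes. Of 11 glycolytic genes used mainly outside the liver, 4 were higher and 4 lower, beside 24.6% and 20.4% of all genes tested. Pkm, the pyruvate kinase of muscle and dividing cells, rose from 4.72 ± 0.848 to 18 ± 5.19 CPM (log2 fold change 1.93 ± 0.20 SE, adjusted p = 5.77e-07), with Pfkp (2.09 ± 0.30) and the hexokinase Hk2 (1.67 ± 0.42) higher as well. These genes are also expressed by blood and stromal cells, whose markers were higher in the same libraries; their part in the result was not tested. The lower count was 2 with wild-type male 1 or wild-type female 1 left out, and 0 with plain totals.

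Fat metabolism changed in several directions. Of 26 genes of fatty acid oxidation 15 were lower and 2 higher (median -0.48), beside 51.3% lower among all genes of at least 100 CPM. The synthetase Acsl1, which activates fatty acids, fell from 1203 ± 387 to 623 ± 138 CPM (log2 fold change -0.89 ± 0.18 SE, adjusted p = 0.000588), and the hydratase Echs1 fell by less (-0.68 ± 0.14). Cpt1a, the gate to mitochondrial oxidation, rose instead, from 501, 512, 516 and 425 to 638, 843 and 962 CPM (log2 fold change 0.76 ± 0.14 SE, adjusted p = 0.000205). The number lower was 6 with wild-type male 2 left out, 8 with wild-type females 1 or 2 or mutant female 2 left out and 9 with wild-type male 1 or mutant males 1 or 2 left out, and 4 with plain totals. Those higher numbered 1 with mutant male 3 or female 3, or wild-type male 2 or female 2, left out.

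Some genes that make fat fell, and some that take up or store fat rose. Of 16 genes of fat synthesis 7 were lower, beside 51.3% of all genes of at least 100 CPM, and 1 higher, the elongase Elovl5 (0.68 ± 0.17). Besides Thrsp, the malic enzyme Me1 fell from 103 ± 5.23 to 34.8 ± 9.68 CPM (log2 fold change -1.59 ± 0.31 SE, adjusted p = 0.000479) and the triglyceride synthase Dgat2 fell by less (-0.87 ± 0.14). Of 14 uptake and droplet genes 6 were higher and 2 lower, and the number lower was 1 with wild-type female 2 left out and 4 with mutant male 3 left out. Lpl, the lipoprotein lipase that adult liver normally lacks, stood at 10.7, 15.3, 5.29 and 7.19 CPM in the wild types and 148, 193 and 235 CPM in the mutants (log2 fold change 4.38 ± 0.48 SE, adjusted p = 9.19e-07). The lowest mutant was far above the highest wild type, in both sexes. Plin2, which coats lipid droplets, rose by less (0.84 ± 0.17), and Fitm1, which helps droplets form, fell (-2.78 ± 0.37). Scd2, the desaturase of fetal liver and brain, stood at 1.45, 1.3, 2.18 and 2.25 and 13.7, 64.2 and 116 CPM (log2 fold change 5.19 ± 0.86 SE, adjusted p = 0.000103), with a wide spread among the mutants. In cholesterol synthesis few genes passed the test, with 1 of 22 genes higher and 0 lower (median 0.12). The higher one was its regulator Srebf2 (0.82 ± 0.28, adjusted p = 0.023), whose call was lost without wild-type male 1 (adjusted p = 0.050), wild-type male 2 (0.061) or wild-type female 2 (0.067).

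Some genes of bile acid synthesis fell. Of 10 genes 5 were lower (3 with plain totals) and 1 higher. The share lower is close to the 51.3% of all genes of at least 100 CPM. Cyp27a1, which starts the acidic route, stood at 474, 511, 496 and 491 CPM and at 89.2, 123 and 278 CPM in the mutants (log2 fold change -1.86 ± 0.22 SE, adjusted p = 2.4e-06). Akr1d1, the steroid reductase of the ring (-1.38 ± 0.19), and Baat, which joins bile acids to taurine or glycine (-1.41 ± 0.23), fell too. Cyp8b1, which sets the share of cholic acid, rose over the sexes together (1.05 ± 0.23), but the change was -0.24 in males and 2.35 in females. Of 14 transporters 4 were higher and 4 lower, beside 24.6% and 20.4% of all genes tested. Slco1b2, an uptake carrier of the sinusoidal side, fell from 1739 ± 280.2 to 812 ± 232 CPM (log2 fold change -1.09 ± 0.22 SE, adjusted p = 0.000581), and the related Slco1a4 (-1.57 ± 0.21) and Slco1a1 (-3.48 ± 0.50) fell further. The export pump Abcc4 stood at 2.38, 2.34, 4.3 and 6.49 CPM against 11.1, 15.5 and 32.5 CPM (log2 fold change 2.25 ± 0.26 SE, adjusted p = 2.23e-06), and the anion carrier Slc22a7 (1.90 ± 0.30) and the pump Abcb1a (0.99 ± 0.22) rose as well. The lower members named here were carriers into the cell, and 2 of the 3 named higher ones carry solutes out.

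Enzymes that clear foreign compounds were lower more often than higher. Of 42 cytochrome P450 genes 15 were lower and 5 higher (median -0.50), and of 40 conjugating enzymes 20 were lower and 6 higher (median -0.55). Both shares lower are under the 51.3% of all genes of at least 100 CPM and above the 20.4% of all genes tested. Cyp2j5 stood at 1119, 1067, 1034 and 1113 CPM in the wild types and 215, 370.5 and 569.8 CPM in the mutants (log2 fold change -1.47 ± 0.25 SE, adjusted p = 0.000141). Cyp2c38 (-2.13 ± 0.32) and Cyp2c70 (-1.29 ± 0.20) fell as well, but Cyp2c55 of the same family rose from 18.6, 27.6, 16.6 and 11.2 to 130.0, 216 and 374 CPM (log2 fold change 3.63 ± 0.32 SE, adjusted p = 7.45e-08). Genes of one P450 cluster thus moved in both directions, and reads of these similar genes may be split uncertainly. Among conjugating enzymes the glucuronosyltransferases Ugt3a1 (-1.40 ± 0.17) and Ugt2b1 (-1.90 ± 0.25) and the glutathione transferase Gsto1 (-1.12 ± 0.16) fell, and Gstm2 rose (0.96 ± 0.26). Conjugating genes higher numbered 3 with wild-type males 1 or 2 or wild-type females 1 or 2 left out. Those lower numbered 13 with wild-type female 2 left out, and 11 with plain totals.

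Carboxylesterases changed in both directions. Of 14 genes 5 were lower and 3 higher, beside 20.4% and 24.6% of all genes tested. Ces1b stood at 132, 174, 145 and 164 CPM in the wild types and 8.41, 19.2 and 36.7 CPM in the mutants (log2 fold change -2.93 ± 0.34 SE, adjusted p = 1.75e-06). Ces1e (-2.30 ± 0.28) and Ces1c (-1.33 ± 0.18) fell too, and Ces2e rose from 269 ± 18.8 to 493 ± 114 CPM (log2 fold change 0.87 ± 0.23 SE, adjusted p = 0.005). The number higher was 1 with wild-type males 1 or 2 or wild-type females 1 or 2 left out. In heme and iron handling 6 of 18 genes were lower and 2 higher, the latter being the heme synthesis enzyme Alad (0.78 ± 0.25) and Id1, a target of BMP signalling (2.67 ± 0.33). The lower count was 2 with wild-type female 1 left out and 3 with wild-type males 1 or 2 left out, and 0 with plain totals.

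Several regulators of the hepatocyte state fell by modest amounts. Of 24 transcription factors 11 were lower and 1 higher (median -0.48). The share lower is under the 51.3% of all genes of at least 100 CPM and above the 20.4% of all genes tested. The list was not limited to genes of at least 100 CPM. Hnf4a, the nuclear receptor on which many liver genes depend, stood at 617, 601, 620.4 and 751 CPM and 277, 308 and 338 CPM (log2 fold change -1.07 ± 0.11 SE, adjusted p = 6.16e-07). Nr1h4, the bile acid receptor, stood at 185, 205, 143 and 167 and 56.2, 98.3 and 109 CPM (log2 fold change -0.96 ± 0.16 SE, adjusted p = 0.000112), and Foxa3 fell (-0.75 ± 0.11, adjusted p = 3.9e-05). No mutant reached the wild-type range in these 3 genes, and 11.9% of all genes tested had every mutant below every wild type. With plain totals 4 regulators were lower and 4 higher, and under TMM the number higher was 2 with mutant males 2 or 3 left out. Of 20 genes of the growth hormone and insulin axis, the receptor Ghr was the 1 that fell, from 710.0 ± 89.5 to 368 ± 96.5 CPM (log2 fold change -0.96 ± 0.16 SE, adjusted p = 0.000141), and 2 rose, Igf1r among them. The number higher was 1 with wild-type males 1 or 2, wild-type females 1 or 2 or mutant male 1 left out, and the number lower 2 with mutant female 3 left out.

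Pericentral genes were more often higher than lower, and periportal genes more often lower than higher; no test compared the lists. Of 17 genes of the pericentral zone 10 were higher and 2 lower (median 0.89), beside 24.6% higher and 20.4% lower among all genes tested. Of 14 periportal genes 7 were lower and 2 higher (median -0.57). Rhbg, an ammonium channel of the cells around the central vein, stood at 2.72, 2.95, 3.18 and 2.83 CPM and 14.1, 23.4 and 29.6 CPM (log2 fold change 2.93 ± 0.32 SE, adjusted p = 1.06e-06). Lect2 (1.39 ± 0.21) and the Wnt feedback inhibitor Nkd1 (1.78 ± 0.29) rose with it, and the receptor Ahr fell (-0.76 ± 0.17). On the periportal side, the glutaminase Gls2 went from 349.6, 362, 368 and 328 to 129.9, 173 and 246 CPM (log2 fold change -0.98 ± 0.14 SE, adjusted p = 2.64e-05) and the serine dehydratase Sds fell by as much (-0.97 ± 0.18), whereas E-cadherin, Cdh1, rose (1.17 ± 0.26). The summed level of the pericentral list overlapped between genotypes, at 8598 to 10594 CPM and 6191 to 9992 CPM, and that of the periportal list did not, at 9273 to 11340.1 CPM and 4806 to 7385 CPM. The lower count of the pericentral list was 1 with wild-type males 1 or 2, wild-type females 1 or 2, mutant male 1 or mutant females 1 or 2 left out. Level differed between the lists: Gls2 and Sds are above 100 CPM in every wild type, where 51.3% of genes were lower, and Rhbg and Nkd1 are under 4 CPM.

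Fetal and neonatal genes were high. Of 18 genes 16 were tested, 13 were higher and 0 lower, with a median of 4.04, or 3.93 with genes at 0 in a genotype set to a bound of 3 counts. Igf2bp3, which binds RNA in fetal cells, stood at 0.34, 1.65, 0 and 0 CPM in the wild types and 13.6, 20.6 and 29.5 CPM in the mutants (adjusted p = 3.79e-09). H19, the imprinted fetal RNA, stood at 0.511, 0.0867, 0.993 and 0.385 CPM and 1.6, 13.2 and 306 CPM (log2 fold change 5.60 ± 0.78 SE, adjusted p = 1.62e-05). The high H19 values were those of mutant females 1 to 3, while the mutant males had 1.6 to 4.48 CPM; the difference between the sexes did not pass the test (adjusted p = 0.29). Cd24a, a surface protein of progenitors and of several blood and bile duct cells, rose as well (4.21 ± 0.41). The number lower was 1 with mutant female 2 left out. The share higher, 13 of 16, stands beside 63.2% for all genes under 1 CPM in the wild type.

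**Figure D3:**
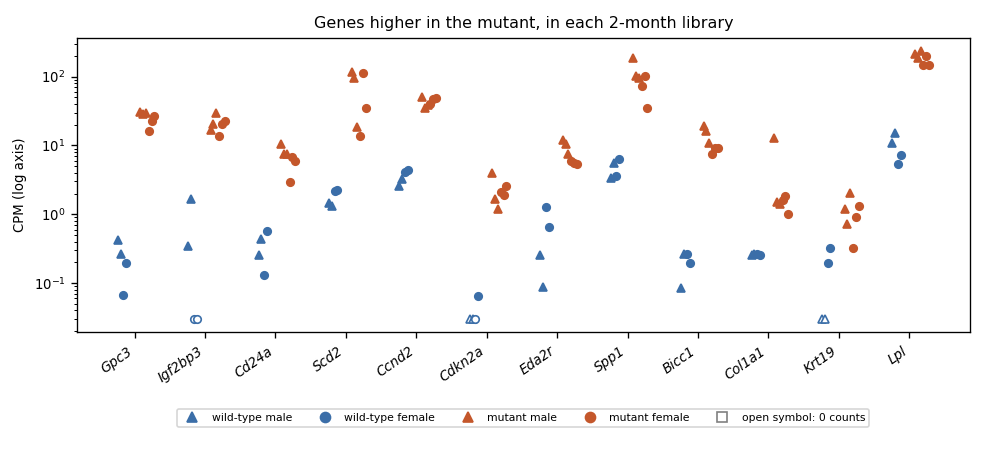
CPM (log axis) of 12 genes that were higher in the mutant, in each 2-month library, triangles for males and circles for females; open symbols at the foot of the plot stand for 0 counts. For all 12 genes every mutant library lies above every wild-type library, as for 14.3% of all genes tested. Col1a1 in mutant male 1 stands apart from the other mutants.

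The sexes changed alike in most genes, and many genes chosen for a sex bias had a smaller gap between males and females in the mutant. Taken alone, mutant males had 2802 higher genes (20.8%) and 2442 lower (18.1%). Mutant females had 1295 higher (9.60%) and 687 lower (5.09%). The 2 comparisons share no library. Their fold changes correlated at r = 0.81 across genes, which are not independent replicates, and of the 1494 genes called in both sexes 15 had opposite signs. A test of the difference itself called 67 genes (0.497% of those tested), and in 56 of them the gap between males and females was smaller in the mutant. These genes were picked by that test, and no share over all genes is given for the gap. The number called was 12 with either wild-type male left out, 19 and 32 with wild-type female 1 or 2 left out, 34 with mutant female 1 left out and 760 with mutant male 3 left out. Genes higher in males numbered 1373 and 1501 with wild-type male 1 or 2 left out, and genes lower in males 1038 and 974 in those fits and 1288 with mutant male 1 left out. Genes higher in females numbered 600 and 558 without wild-type female 1 and 2, and genes lower in females 167 and 193 without those and 399, 323 and 438 without mutant female 1, 2 and 3.

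Genes that mark one sex lost part of their bias. Of 22 male-biased genes 12 were lower and 5 higher, with a median fold change of -1.78 in males and 0.35 in females. Of 23 female-biased genes 6 were lower and 5 higher, with a median of 0.55 in males and -1.24 in females. The median difference of log2 CPM, males minus females, went from 4.82 in wild types to 2.58 in mutants for the male-biased list, and it was smaller in size in 19 of 22 genes. For the female-biased list it went from -6.15 to -2.72, and was smaller in size in 21 of 23 genes. Both lists hold genes known for a wide gap in wild types, so their choice favours a smaller gap in the mutant. The number of female-biased genes lower was 3 with wild-type male 2 left out, and with plain totals 3 were lower and 7 higher.

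In mutant males some male-biased genes fell and some female-biased genes rose. Selenbp2, a selenium-binding protein, stood at 797, 513, 9.4 and 6.49 CPM in wild-type males and females, and at 39.5 to 99.6 CPM in mutant males and 9.53 to 22.7 CPM in mutant females (log2 fold change -3.30 in males and 1.06 in females). Cyp2b9, a female P450, stood at 1.53, 0.693, 812 and 664 CPM in the wild types, at 19.8 to 44.4 CPM in mutant males and at 295 to 587 CPM in mutant females (4.97 in males and -0.84 in females). Mutant males were above wild-type males by more than an order of magnitude, though still under every female. Sult2a2, a female sulfotransferase, rose in males and fell in females (5.84 in males and -1.64 in females), and the hydroxyacid oxidase Hao2 rose in males (5.45 in males and 0.17 in females). The log2 change of the nucleotidase Nt5e was 1.99 in males and -1.19 in females. Male genes that fell in both sexes were the steroid enzyme Hsd3b5, which went from 268, 258, 1.06 and 0.514 to 0, 0.377 and 4.25 CPM (log2 fold change -5.41 ± 0.56 SE, adjusted p = 4.99e-07), and the urinary protein Mup21 (-2.87 ± 0.33), which has near-identical copies. Serpina1e, also a gene with near-identical copies, fell in males (-5.45 in males and -1.04 in females) and did not pass in females. Cyp2c40, a female P450, fell in both sexes (-2.76 in males and -2.11 in females).

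In mutant females some male-biased genes rose. Cyp4a12a, a male P450 that hydroxylates fatty acids, stood at 368, 353, 0.132 and 0.193 CPM in the wild types and at 9.4 to 29.4 CPM in mutant females, with 370.3 to 605 CPM in mutant males (0.38 in males and 6.96 in females). Mutant females were above wild-type females in all 3 libraries, and the 3 mutant males were above both wild-type males. Susd4 rose in both sexes (2.33 in males and 4.86 in females), as did Evc, of the primary cilium (5.27 in males and 2.19 in females), and Ntrk2, a neurotrophin receptor (8.68 in males and 3.38 in females). Vldlr, a lipoprotein receptor, rose in males alone by these tests (4.16 in males and -0.20 in females), with adjusted p = 0.018 for the difference. The test of the sex difference called Ntrk2 (adjusted p = 0.00025), Cyp2b9 (6.08e-05), Selenbp2 (0.00025), Sult2a2 (0.000556), Cyp4a12a (0.001) and Nt5e (0.0011), and these 6 calls passed in each of the 18 alternatives. For Hsd3b5 the difference between the sexes did not pass (adjusted p = 0.43).

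**Figure D4:**
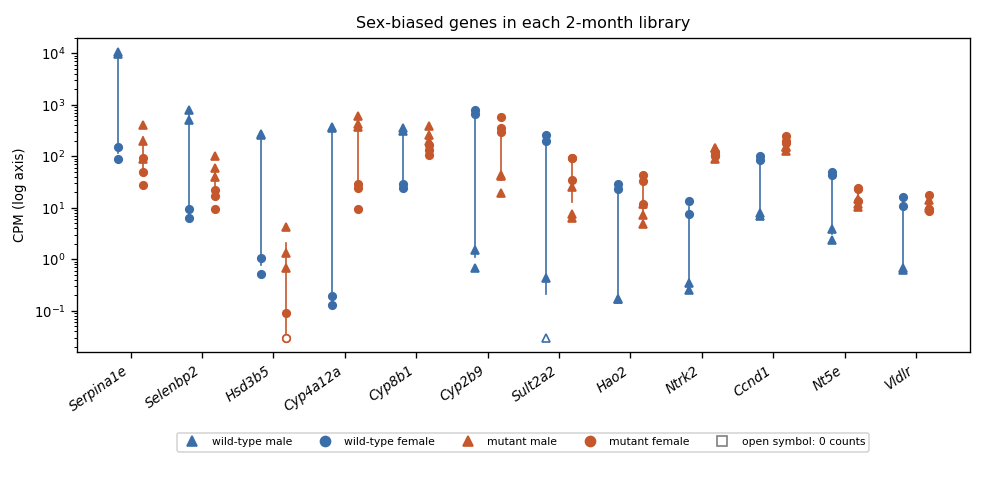
CPM (log axis) of 12 sex-biased genes in each 2-month library, triangles for males and circles for females, with lines that join the mean of the males to the mean of the females of a genotype; open symbols stand for 0 counts. In all 12 genes the line is shorter in the mutant, and in Hsd3b5 the mutant libraries are low in both sexes. The genes were picked for a sex bias or for a called difference between the sexes.

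Several chaperones of the endoplasmic reticulum (ER) were higher. Of 20 genes of the ER stress list 9 were higher and 2 lower (median 0.30), beside 24.6% higher and 20.4% lower among all genes tested. Sdf2l1, a chaperone cofactor of the ER, stood at 10.6, 7.28, 5.03 and 5.27 CPM in the wild types and 12.2, 26.2 and 34.2 CPM in the mutants (log2 fold change 1.81 ± 0.30 SE, adjusted p = 0.000118). Creld2 (1.41 ± 0.31) and the disulfide isomerase Pdia4 (0.81 ± 0.19) rose too, and Atf6, a sensor of this pathway, fell (-0.71 ± 0.17). The number lower was 1 with wild-type males 1 or 2, wild-type female 2, mutant males 1 or 3 or mutant females 1 or 2 left out. Of 16 genes of the integrated stress response 6 were higher and 3 lower. Asns, asparagine synthetase, stood at 3.15, 1.91, 0.132 and 0.193 CPM and 2.15, 2.99 and 6.3 CPM, with wild-type females far below wild-type males (log2 fold change 0.38 in males and 4.36 in females). Psat1, of serine synthesis (3.10 ± 0.49), and the transcription factor Atf5 (0.51 ± 0.14) rose, and the translation repressor Eif4ebp1 fell (-0.79 ± 0.15). With plain totals 1 of these genes was lower.

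In the oxidative stress response the balance of calls turned with the scaling, and several heat shock genes were lower. Of 15 targets of the redox regulator NRF2 7 were lower and 2 higher (2 lower and 3 higher with plain totals). Shares over all genes tested were 20.4% lower and 24.6% higher. The glutathione synthesis subunit Gclm fell from 136 ± 23.7 to 78.6 ± 18.3 CPM (log2 fold change -0.79 ± 0.15 SE, adjusted p = 0.000416), while the sulfiredoxin Srxn1 rose from 20.1 ± 4.46 to 40.5 ± 7.8 CPM (log2 fold change 1.01 ± 0.22 SE, adjusted p = 0.0012). Of 14 heat shock genes 5 were lower and 0 higher, among them the small chaperone Hspb8 (-0.88 ± 0.22) and the mitochondrial chaperonin Hspd1 (-0.81 ± 0.20). The number of heat shock genes lower was 2 with wild-type males 1 or 2, wild-type females 1 or 2, mutant male 1 or mutant female 2 left out and 3 with mutant female 1 left out, with 2 lower and 1 higher under plain totals. Heat shock genes higher numbered 1 with mutant male 2 left out.

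Immediate early genes, which respond within minutes to signals and also to tissue handling, were higher in part. Of 16 genes 8 rose and 0 fell (median 0.91), beside 24.6% higher among all genes tested. Nr4a1, an orphan nuclear receptor, stood at 1.19, 0.953, 3.97 and 1.54 CPM against 3.32, 6.34 and 25.6 CPM (log2 fold change 2.47 ± 0.59 SE, adjusted p = 0.0025), with overlap between the groups. Ier3 (2.33 ± 0.57) and Klf6 (1.16 ± 0.29) rose as well. The time between death and lysis of the cells was not found in the labels, and its part in the result was not tested.

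Some inhibitors of the cell cycle and p53 targets rose. Of 21 genes 12 were higher and 0 lower (median 0.73), beside 24.6% higher among all genes tested. For genes under 1 CPM in the wild type, as Cdkn2a and Cdkn2b are, the share higher was 63.2%. The Cdkn2a locus encodes p16 and p19 and is a classic target of PRC2. Cdkn2a had 1 count in the wild types together and stood at 1.18, 1.99 and 3.93 CPM in the mutants, a ratio of 124-fold (95% counting interval 22.1 to 4929). Its neighbour Cdkn2b, which encodes p15, also had 1 wild-type count and reached 0.802, 1.37 and 2.12 CPM, a ratio of 71.1-fold (95% counting interval 12.5 to 2829). Both genes fall outside the rule for named genes and were chosen after their values were seen. Eda2r, a death receptor induced by p53, stood at 0.255, 0.0867, 1.26 and 0.642 CPM and 5.3, 6.69 and 11.9 CPM (log2 fold change 4.17 ± 0.52 SE, adjusted p = 4.79e-06). Tnfrsf10b, the TRAIL receptor (4.14 ± 0.60), and the death gene Pmaip1 (2.65 ± 0.54) rose too. In these 5 genes every mutant library was above every wild-type library, as in 14.3% of all genes tested.

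Cyclins D1 and D2 (Ccnd1, Ccnd2) rose with them, and other cell cycle genes changed in both directions. Ccnd2 stood at 2.55, 3.29, 4.17 and 4.37 CPM in the wild types and 34.7, 43.4 and 50.8 CPM in the mutants (log2 fold change 3.61 ± 0.24 SE, adjusted p = 2.63e-09). Ccnd1 stood at 7.91, 6.93, 101 and 86.8 CPM, low in wild-type males, and at 126, 168 and 245 CPM in the mutants (log2 fold change 2.71 ± 0.29 SE, adjusted p = 5.9e-07). Mki67, present in dividing cells of any type, stood at 3.66, 3.03, 13.4 and 4.56 and 9.24, 23.8 and 46.4 CPM, with overlap (log2 fold change 2.13 ± 0.53 SE, adjusted p = 0.0033). Of 30 genes 11 were higher and 3 lower, beside 24.6% higher and 20.4% lower among all genes tested. Thymidine kinase Tk1 (-1.09 ± 0.20) and the ribonucleotide reductase Rrm2 (-1.64 ± 0.43), both of DNA synthesis, fell. The number higher was 4 with wild-type male 2 or mutant male 1 left out, 5 with wild-type female 2 left out and 6 with wild-type male 1 left out, 4 with limma-voom and 15 with plain totals. The summed level of the list, Ccnd1 and Ccnd2 included, was 104 to 245 CPM in the wild types and 263 to 445 CPM in the mutants, without overlap. Ccnd1 alone was at 126 to 245 CPM in the mutants, so this sum does not show a rise of the other genes.

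Innate defence and acute phase genes were mixed. Of 24 interferon-induced genes 12 were higher and 0 lower (median 0.66), beside 24.6% higher and 20.4% lower among all genes tested. Ifit2 stood at 2.72, 2.34, 3.64 and 2.95 CPM and 6.81, 9.79 and 13.6 CPM (log2 fold change 1.76 ± 0.27 SE, adjusted p = 4.55e-05), and Oas1a (1.96 ± 0.35) and the peptide transporter Tap1 (1.42 ± 0.28) rose with it. The acute phase list had 4 higher and 4 lower members among 24. Under plain totals 9 were higher and 1 lower, and with DESeq2 7 higher and 4 lower. A2m, which adult mouse liver barely expresses, had 2 counts in the wild types together and stood at 9.92, 22 and 30.6 CPM in the mutants, a ratio of 489-fold (95% counting interval 135 to 4038). Lbp, the endotoxin-binding protein, rose by less (1.12 ± 0.22), as did Lcn2 (2.16 ± 0.45), and Crp fell (-0.84 ± 0.18). The acute phase count of higher genes was 7 with mutant male 1 left out, and that of lower genes was 1 with wild-type males 1 or 2, mutant male 1 or mutant female 1 left out and 2 with wild-type females 1 or 2 or mutant female 2 left out.

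Most matrix genes were higher. Of 33 genes of the extracellular matrix 27 were higher and 1 lower (median 1.80), beside 24.6% higher among all genes tested. For genes under 1 CPM in the wild type, as Col1a1 is, the share higher was 63.2%. Col4a2, a chain of basement membrane collagen, stood at 10.1, 9.19, 6.82 and 5.59 CPM in the wild types and 27.7, 38.2 and 74.3 CPM in the mutants (log2 fold change 2.47 ± 0.27 SE, adjusted p = 9.9e-07), with its partner Col4a1 (1.69 ± 0.29) and the fibrillar chain Col5a2 (2.26 ± 0.45) higher as well. Col1a1, the chain of scar collagen, stood at 0.255, 0.26, 0.265 and 0.257 CPM and 0.999, 1.56 and 12.6 CPM (log2 fold change 3.41 ± 0.77 SE, adjusted p = 0.0015). The highest value was that of mutant male 1, and the mutant females lay at 0.999 to 1.83 CPM. Despite the count, the summed level of the tested matrix genes overlapped between genotypes, at 1087 to 2342 CPM and 1529 to 2710.5 CPM. Matrix genes higher numbered 19 without mutant male 1 and 20 with limma-voom. The lower count was 0 with wild-type male 1, wild-type female 1, mutant males 2 or 3 or mutant females 2 or 3 left out.

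Many enzymes and signals of fibrosis were higher as well, beside 24.6% higher among all genes tested. Of 18 matrix enzymes 12 were higher and 0 lower (median 1.47, or 1.38 with genes at 0 set to the bound), for example the inhibitor Timp2 (1.58 ± 0.28) and the proteases Adamts1 (1.32 ± 0.26) and Mmp14 (1.03 ± 0.21). That count was 7 with mutant male 1 left out, and 7 with limma-voom. Of 18 profibrotic signals 15 were higher and 0 lower. Spp1, osteopontin, a matrix cytokine of injured bile duct and hepatocytes, stood at 3.32, 5.63, 3.64 and 6.42 CPM and 35.5, 98 and 185 CPM (log2 fold change 4.31 ± 0.46 SE, adjusted p = 7.58e-07). Ihh, a hedgehog ligand, stood at 0.511, 0.52, 0.199 and 0.385 and 2.94, 5.08 and 9.5 CPM (log2 fold change 3.77 ± 0.56 SE, adjusted p = 3.16e-05), and the TGF-beta receptor Tgfbr2 rose by less (1.01 ± 0.14). Of 14 chemokines and cytokines 8 were higher and 3 lower, with Cxcl14 (5.21 ± 0.84) and Il1b (2.08 ± 0.57) among those higher. The number higher was 4 with wild-type male 1 left out, and the number lower was 1 with wild-type male 2 left out and 0 with plain totals.

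Markers of bile duct cells were higher in sum in every mutant than in any wild type. Of 17 markers 13 were tested, 11 were higher and 0 lower, with a median of 3.47, or 3.37 at the bound. Among all genes under 1 CPM in the wild type, as Krt19 and Bicc1 are, 63.2% were higher. The summed level was 18.4 to 43.7 CPM in the wild types and 95.6 to 161 CPM in the mutants, without overlap. Krt19, the defining keratin, stood at 0, 0, 0.199 and 0.321 CPM and 0.327, 1.06 and 2.01 CPM (adjusted p = 0.003). Its rise passed in males, where the wild types were at 0, and not in females (adjusted p = 0.0057 and 0.28). Cldn4 and Sctr were among the markers with 0 counts in every wild type. Bicc1, an RNA-binding protein of ducts and tubules, stood at 0.0851, 0.26, 0.265 and 0.193 and 7.39, 9.94 and 19.1 CPM (log2 fold change 5.79 ± 0.32 SE, adjusted p = 1.5e-10). The polycystic kidney gene Pkhd1, also read in wild-type hepatocytes, went from 11 ± 6.14 to 56.3 ± 15.5 CPM (2.52 ± 0.21). Pkhd1 makes up much of the summed level. Anxa13 rose (6.46 ± 0.59). Cldn7, a tight junction gene outside the naming rule, had 1 wild-type count and a ratio of 330.4-fold (95% counting interval 59.1 to 13072). Bulk counts cannot tell more cells of a type from more RNA per cell, here or for the cell types that follow, and whether these reads came from hepatocytes or duct cells was not tested.

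Markers of stellate and mesenchymal cells were higher. Of 20 tested markers 13 rose and 0 fell (9 without mutant male 1), beside 24.6% higher among all genes tested. Every mutant library was above every wild-type library in 4 of the 20, and in 14.3% of all genes tested. The summed level was 90.5 to 139.7 CPM in the wild types against 155 to 458 CPM in the mutants. Mutant male 1 was the highest, with 317 CPM next. Cnn1 was the 1 marker at 0 in every wild type. Pdgfra (2.31 ± 0.28), Reln (1.51 ± 0.29) and Hand2 (1.77 ± 0.42) rose, and the defining marker Lrat, which stores vitamin A, stood at 8.34, 6.93, 6.29 and 8.61 CPM against 5.69, 14.8 and 26.8 CPM (log2 fold change 0.95 ± 0.38 SE, adjusted p = 0.047). The call for Lrat was lost with wild-type males 1 or 2, wild-type females 1 or 2, mutant male 1 or mutant females 1 or 2 left out (adjusted p from 0.054 to 0.14 in those fits). The part of these cells in the matrix result was not tested.

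Few endothelial markers passed the test. Of 19 markers 2 were higher and 0 lower (median 0.36). Pecam1, the defining marker, stood at 7.49, 10.3, 11.7 and 11.4 CPM and 8.33, 12.7 and 28.1 CPM (log2 fold change 0.52 ± 0.32 SE, adjusted p = 0.18), and the lymphatic receptor Flt4 rose (1.65 ± 0.30). The summed level was 311 to 472 CPM against 271 to 972 CPM, and its highest value was again mutant male 1, with 586 CPM next. The number higher was 1 with wild-type males 1 or 2, wild-type females 1 or 2, mutant male 1 or mutant females 1 or 2 left out and 4 with mutant male 2 left out, and the number lower was 1 with mutant male 3 left out. With plain totals 4 were higher.

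Macrophage markers rose nearly as a whole list. Of 22 markers 20 were higher and 0 lower (median 1.15), and 19 were higher without mutant male 1. Over all genes tested, 24.6% were higher. Every mutant library was above every wild-type library in 9 of the 22 markers, and in 14.3% of all genes tested. Clec4f, the defining marker of the resident Kupffer cell, stood at 33.4, 47.8, 37.1 and 38.2 CPM and 46.1, 72.4 and 134 CPM (log2 fold change 0.98 ± 0.24 SE, adjusted p = 0.003), with overlap. Marco (2.09 ± 0.37), the endotoxin co-receptor Cd14 (2.16 ± 0.32) and the integrin Itgam (2.75 ± 0.54) rose by more. Summed markers were at 184 to 243 CPM in the wild types and at 272 to 843 CPM in the mutants, without overlap, and the mutant next to male 1 was at 464 CPM. No marker was at 0 in the wild types.

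Markers of other blood cells were scarce but higher. Ptprc, the pan-leukocyte marker, stood at 7.15, 7.63, 4.96 and 7.0 CPM in the wild types and 9.48, 19.1 and 33.8 CPM in the mutants (log2 fold change 1.62 ± 0.30 SE, adjusted p = 0.000318). Higher counts were 9 of 12 for T and NK cells, 6 of 6 for B and plasma cells, 11 of 13 for granulocytes and 10 of 10 for MHC class II and antigen presentation, with none lower. Without mutant male 1 they were 6, 2, 9 and 8. The first 3 lists are nearly silent in the wild types, and of all genes under 1 CPM there 63.2% were higher. Over all genes tested the share higher was 24.6%. For B and plasma cells the count was 2 with wild-type female 1 or mutant male 1 left out and 3 with wild-type males 1 or 2, wild-type female 2 or mutant female 2 left out. The T cell marker Cd3e stood at 0.0851, 0.0867, 0.132 and 0.257 CPM and 0.237, 0.666 and 2.9 CPM (log2 fold change 2.88 ± 0.74 SE, adjusted p = 0.0042). Cd79a, of B cells, had 3 wild-type counts and a ratio of 9.77-fold (95% counting interval 3.17 to 48.8), and its call (adjusted p = 0.019) was lost with wild-type male 1, wild-type females 1 or 2 or mutant male 1 left out (adjusted p from 0.053 to 0.16 in those fits). Rises of single genes were those of Jchain (4.80 ± 0.66), Cd22 (1.58 ± 0.42), S100a9 (4.05 ± 0.76), Csf3r (1.95 ± 0.47), Ciita (2.91 ± 0.53) and Cd74 (1.72 ± 0.41). Summed levels were 1.39 to 4.11 against 2.49 to 28.4 CPM for T and NK cells, 1.06 to 1.8 against 4.5 to 31.9 CPM for B and plasma cells, 1.73 to 1.92 against 3.91 to 23 CPM for granulocytes and 38 to 77.4 against 50 to 370.2 CPM for MHC class II. Mpo, Elane, Ctsg and Camp were at 0 in every wild type. The level of Alb in the same libraries is given above and did not pass the test.

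**Figure D5:**
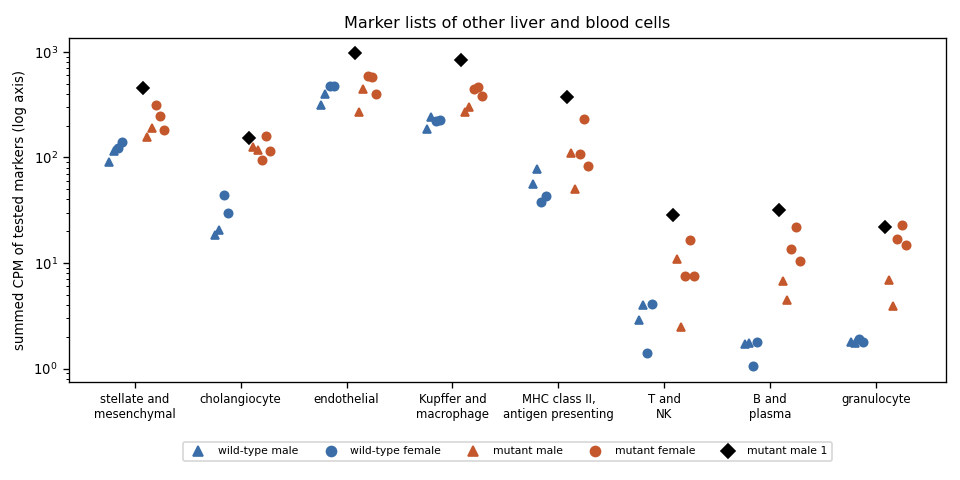
Summed CPM (log axis) of the tested markers of 8 other cell types in each 2-month library, triangles for males, circles for females and a diamond for mutant male 1. Stellate, bile duct, macrophage, B cell and granulocyte sums do not overlap between genotypes, endothelial, T cell and MHC class II sums do, and mutant male 1 is highest in 6 of the 8 lists.

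Red cell and platelet markers, a sign of blood in the sample, were not raised as a group, with 1 of 7 tested markers higher and 1 lower. The lower one was Alas2, the erythroid heme synthase, which stood at 115, 124, 9.73 and 10.3 CPM and 7.84, 17.3 and 36.4 CPM, high in wild-type males (log2 fold change -0.94 ± 0.20 SE, adjusted p = 0.000832). Both globin pairs were at 0 counts in all 10 libraries. Eno1 of the glycolytic list and Hmgcs1 of the cholesterol list were at 0 there too. Whether the counting dropped reads of such genes was not tested, so these zeros do not show that globin RNA was absent. The higher count was 0 with wild-type male 2, wild-type females 1 or 2, mutant male 1 or mutant female 2 left out.

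Clock genes and control genes moved in part. Of 14 clock genes 2 were higher and 4 lower, beside 24.6% higher and 20.4% lower among all genes tested. Cry1, a repressor of the clock, stood at 16.4, 17.9, 15.3 and 22 CPM and 1.63, 5.35 and 9.14 CPM (log2 fold change -2.04 ± 0.21 SE, adjusted p = 5.42e-07), with mutant males at 1.63 to 3.2 CPM and mutant females at 7.5 to 9.14 CPM. Bhlhe41 rose (2.88 ± 0.65) and Nfil3 fell (-1.13 ± 0.27). The hour of sampling was not found in the labels, and its part in the result was not tested. The number of clock genes higher was 1 with wild-type male 2 or wild-type female 2 left out, and with plain totals 3 were higher and 3 lower. Of 14 genes often used as controls 7 were lower and 1 higher (median -0.40). That share lower is close to the 51.3% of all genes of at least 100 CPM, and 20.4% of all genes tested were lower. Gapdh fell from 188 ± 32.9 to 101 ± 7.09 CPM (log2 fold change -0.88 ± 0.17 SE, adjusted p = 0.000444), and Eef1a1 (-0.75 ± 0.15) and Sdha (-0.58 ± 0.11) fell as well. With plain totals the list's median was -0.13, 2 were lower and 2 higher, and the call for Sdha was lost (adjusted p = 0.056). The number of control genes higher was 0 with wild-type males 1 or 2, wild-type female 2, mutant male 1 or mutant females 2 or 3 left out.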

How the data were processed

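RNA was sequenced from hepatocytes of 22 samples as strand-specific, single-end polyA libraries of 75 bp reads, per the labels' protocols. The authors deposited a table of raw counts, whole-number reads per gene symbol, which is the table used here; a normalized table was not used. The submitters' processing notes name STAR 2.4.2a, HTSeq 0.6.1p1, DESeq2 1.14.1, bedtools and mm9. The sources used here do not give the annotation or strand setting of the counting, so overlapping genes cannot be told apart. Of 24422 entries, 5824 were 0 in every library.

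Counts were fitted with edgeR 4.0.16 (R 4.3.3): filterByExpr, TMM factors and 1 quasi-likelihood model of 22 libraries in 8 groups of age, genotype and sex, with 14 residual degrees of freedom and 13493 genes tested. The contrast was the mutant minus wild-type difference at M2, averaged over the sexes, and the p-values were adjusted over all tested genes by Benjamini and Hochberg. TMM factors ran from 0.849 to 1.24 among the M2 libraries, and the ribosomal transcript Rn45s took 6.19% to 16.8% of their counts. Where a gene had 1 to 3 wild-type counts, the ratio of summed counts is given with a 95% counting interval, which covers counting error only. Replicates are labelled as biological, but nothing says that they came from separate animals, so the p-values reflect only how these samples spread, which may be technical.

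The genes described and the 50 gene lists (939 distinct genes, 930 of them in the table) were chosen with earlier results of these data known. Genes were named by rule: the PRC2 core and defining cell markers, the 15 largest called changes per direction where the genotypes did not overlap and the average log2 CPM reached 2, up to 3 called genes per list and direction by smallest p, and 8 per direction for the difference between the sexes. The rule gave 235 genes, of which 186 are described; some are not reported here. Cdkn2a, Cdkn2b and Cldn7 were added after their values were seen. Promoter windows are from RefSeq, GRCm38.p6, matched by symbol. Alternatives were RLE factors, plain totals, no filter, DESeq2 1.42.0, limma-voom (limma 3.58.1), the M2 libraries alone, a total without Rn45s, the replicate number as a block, and leaving out each M2 library. On simulated counts (12072 genes), 67 genes were changed 1.5-fold, 67 2-fold and 66 4-fold in the M2 mutants. The test recovered 16.4%, 61.2% and 97.0% of them, with 10 false calls. In the data 45% of genes were called, so the rates of the simulation need not hold there.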

Additional observations from a re-analysis of the deposited data

Results flagged for a closer look

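The genotype effect differed between males and females, by the test of the difference itself in edgeR's model, for 18 of the genes described. The log2 effect in males minus that in females was above 0 for Sult2a2 (7.49), Cyp2b9 (5.81), Ntrk2 (5.30), Hao2 (5.28), Vldlr (4.35), Nt5e (3.19), Ccnd1 (3.12), Evc (3.08) and Abcb1a (2.19). It was below 0 for Cyp4a12a (-6.58), Serpina1e (-4.41), Selenbp2 (-4.36), Asns (-3.99), Cyp8b1 (-2.59), Susd4 (-2.53), Nlrp12 (-2.37), C6 (-2.16) and Alas2 (-2.14). The difference passed in all 18 alternatives for Ntrk2, Cyp2b9, Cyp4a12a, Selenbp2, Sult2a2 and Nt5e, and was lost in at least 1 of them for Nlrp12, C6, Vldlr, Cyp8b1, Abcb1a, Susd4, Serpina1e, Hao2, Evc, Asns, Ccnd1 and Alas2.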

How the results depend on the processing

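The shallowest library, mutant male 3, had 6946003 counts. In simulated data of this design, with far fewer changed genes than were called here, 16.4% of 1.5-fold changes were recovered. Depth itself was not varied. With plain totals, lower genes numbered 805, genes with a sex difference 135, genes higher and lower in males 4558 and 673, and genes lower in females 294. Genes with a sex difference numbered 248 with DESeq2 and 38 with limma-voom. The cause was not tested. Leaving out single libraries, counts ran from 2767 to 3707 for higher genes, 1659 to 2930 for lower genes, 12 to 760 for a sex difference, 1373 to 3511 and 974 to 2764 for higher and lower in males, and 558 to 1650 and 167 to 769 for higher and lower in females.

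Values near 0 changed sign and none of these passed the test. Ezh2 was 0.24 with plain totals, 0.020 with the M2 libraries alone, 0.011 without Rn45s and -0.18 to 0.23 without single libraries (0.23 without wild-type male 2, 0.047 without wild-type female 1, 0.081 for mutant male 3, 0.046 for mutant female 1). Suz12 was 0.059 with plain totals. Alb was 0.21 with plain totals, 0.0033 with the M2 libraries alone and -0.097 to 0.073 without single libraries (0.038 with wild-type female 1 left out, 0.072 with mutant male 3 and 0.073 with mutant female 1).

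No pairing by replicate number was seen: of 13 same-numbered pairs, 3 correlated above 0.1 in their deviations (median 0.0044). These pairs are not independent: in wild-type groups of 2 libraries the deviations mirror each other, so male 1 with female 1 and male 2 with female 2 share r = 0.109. For the 2-month wild types the replicate numbers in title and description differ. The title was used, here and for the library names. With the number as a block, 3378 genes were higher, 2794 lower and 66 differed between sexes, with 20 cell cycle genes higher (11 without the block) and 4 uptake and droplet genes lower (2 without it), while Ezh2 was 0.063 and Alb 0.012.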
